A study of Homo sapiens with 6 samples.

Results

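The E2F transcription factor family (E2F1 to E2F8), the pocket protein gene RB1 and the forkhead factor gene FOXM1 were examined in MDA-MB-231-DR cells treated with cyperotundone (CYT). The members were chosen by gene symbol as the E2F family with its main inhibitor and a factor of the later cell cycle, and they are 10 of the 58302 genes measured. MDA-MB-231-DR is a doxorubicin-resistant derivative of MDA-MB-231, a breast cancer line that lacks the estrogen receptor. The control group was 3 libraries of these cells, with no vehicle named in the labels, and the CYT group was 3 libraries of the same cells given CYT, a sesquiterpene ketone of sedge rhizomes. The study's methods say that the resistant line was kept in medium with doxorubicin at a low dose. The CYT dose, the treatment time and whether doxorubicin stayed in the medium during the CYT treatment are not given for these libraries in the sources used here. RNA sequencing of each library gave a raw count per gene. The counts summed to 17357053, 17770102 and 14050849 in control replicates 1, 2 and 3, and to 14106017, 13056270 and 13423683 in CYT replicates 1, 2 and 3.

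E2F proteins bind DNA, mostly together with a DP partner, and control the genes of DNA replication and of the entry into S phase. E2F1, E2F2 and E2F3 are known as activators held back by the retinoblastoma protein RB1, while E2F4 and E2F5 act mainly as repressors with the related pocket proteins, and E2F6, E2F7 and E2F8 repress without pocket proteins. RB1 lets go of the activators when cyclin-dependent kinases phosphorylate it, and FOXM1 takes over later, at the genes of mitosis. Doxorubicin-resistant breast cancer lines are studied for their ability to keep dividing under a drug that damages DNA. These genes were read here in such a line.

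The labelled cell type was checked against marker genes. The 5 markers expected in MDA-MB-231 were VIM, CD44, AXL, CAV1 and EGFR. They summed to 3646, 3798 and 4040 CPM in control replicates 1, 2 and 3, and to 1656, 1804 and 1734 CPM in CYT replicates 1, 2 and 3. CPM is the count relative to the library total, scaled by the TMM method. VIM, AXL, CAV1 and EGFR were lower in CPM in every CYT library than in any control library, while the CD44 groups overlapped. VIM was the most abundant of them, with 36428 to 44600 counts in control and 11463 to 15720 counts in CYT libraries. The 6 luminal markers summed to at most 5.95 CPM and the 3 basal markers to at most 3.06 CPM in any library, and ESR1 had at most 4 counts. The 3 fibroblast markers summed to 19.1 to 35.8 CPM in control and 4.34 to 6.14 CPM in CYT libraries, mostly from COL1A1 and PDGFRB. The 3 leukocyte markers summed to at most 1.37 CPM in control and 4.34 CPM in CYT libraries, mostly from CD14, with CD3E at 0 in every library. Mitochondrial rRNA took 0.148% to 0.221% of the counts in control and 1.56% to 1.74% in CYT libraries. The antisense share was 0.253% to 0.291% in control and 0.553% to 0.572% in CYT libraries. Genes with a count numbered 20888 to 21422 in control and 23548 to 25191 in CYT libraries. The part of these differences and of the markers in the results below was not tested.

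CYT replicate 2 stood apart from its group. Its log2 CPM values correlated with those of CYT replicates 1 and 3 at 0.905 and 0.904 across genes, against 0.970 between CYT replicates 1 and 3. The deviation followed base composition: across 15542 genes, which are not independent replicates, the difference of CYT replicate 2 from the mean of the other CYT libraries had a Spearman rho of -0.749 with the GC content of the longest transcript. Genes in the lowest GC quartile were higher in CYT replicate 2 by a median of 0.87 on the log2 scale, and genes in the highest GC quartile differed by a median of -1.07. Control replicate 2 deviated from its group the same way, with a rho of -0.571 and medians of 0.51 and -0.47. The members span this range, from RB1 with 37.3% GC and E2F5 with 38.3% to E2F4 with 59.3% and E2F1 with 62.5%. E2F1, E2F2, E2F4 and FOXM1, the 4 members of highest GC content, lay below the mean log2 CPM of replicates 1 and 3 of the same group in both replicate 2 libraries, by less in control, where E2F1 was still above control replicate 3. RB1, E2F3, E2F5, E2F7 and E2F8 lay above that mean in both. E2F6 was above it in control replicate 2 and below it in CYT replicate 2. Fold changes of the members are therefore given with and without CYT replicate 2. A correction for GC content was fitted only together with the replicate number as a block. That fit is named beside the members whose call differed under it.

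**Figure D1:**
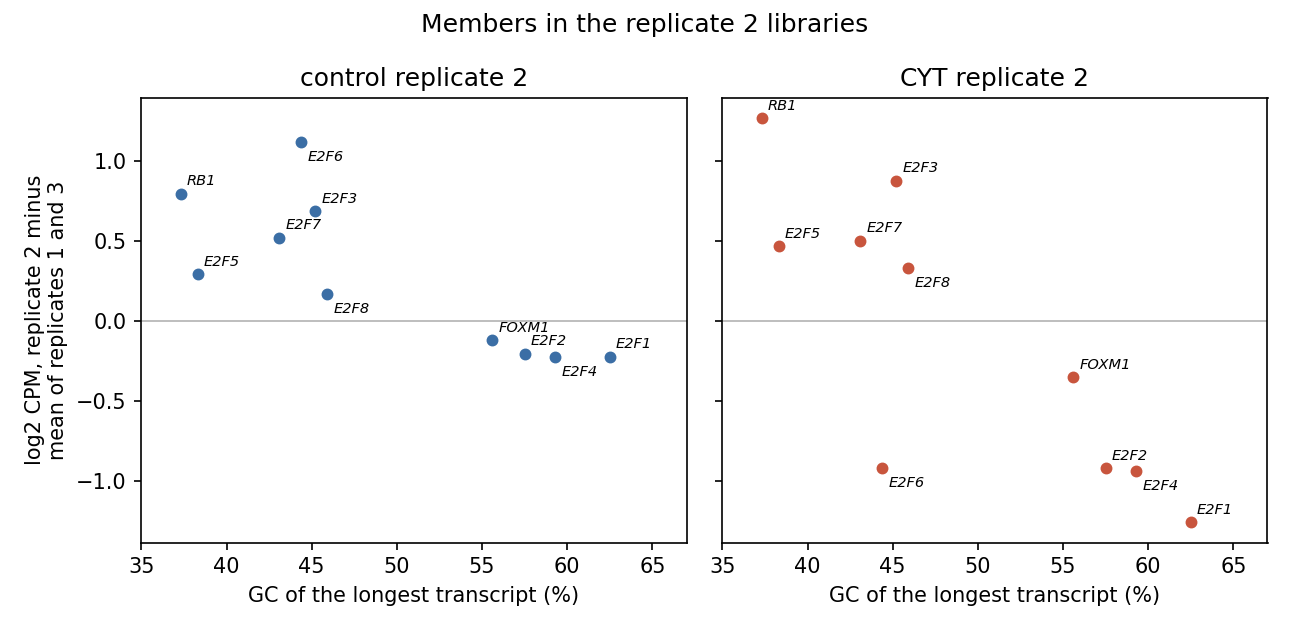
Each point is a member, placed by the GC content of its longest transcript (horizontal axis, %) and by how far its log2 CPM in replicate 2 lay from the mean of replicates 1 and 3 of the same group (vertical axis). Members with high GC content lie below 0 in both panels, down to -1.26 for E2F1 in CYT replicate 2, and E2F6 is the member that changes side.

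In the CYT libraries 3 members were called higher, E2F1, E2F2 and E2F8, and E2F4 was called lower. A gene was called at an adjusted p under 0.05 in edgeR's quasi-likelihood test of CYT against control with Benjamini-Hochberg adjustment over the 15572 genes tested, written below as edgeR adjusted p. All 10 members passed the filter on low counts. The 4 of 10 members called compare with 28.6% of all genes tested, the 3 called higher with 15.7% called higher, and the 1 called lower with 12.9% called lower (2002 genes, or 3089 with the replicate number as a block). With that block 4 members were called higher, beside 20% of all genes, and 1 lower, beside 19.8%. The CYT and control values did not overlap for 7 of the 10 members, against 46.1% of all genes tested. The 4 called members also changed by more than 1 on the log2 scale. The median log2 fold change over all genes was 0.0064, and upper-quartile normalization moved it to 0.155, so that the members nearest to 0, RB1 and FOXM1, have no direction that holds under both scalings. In these bulk samples, fewer cells that express a gene and less of its RNA per cell cannot be told apart.

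**Figure D2:**
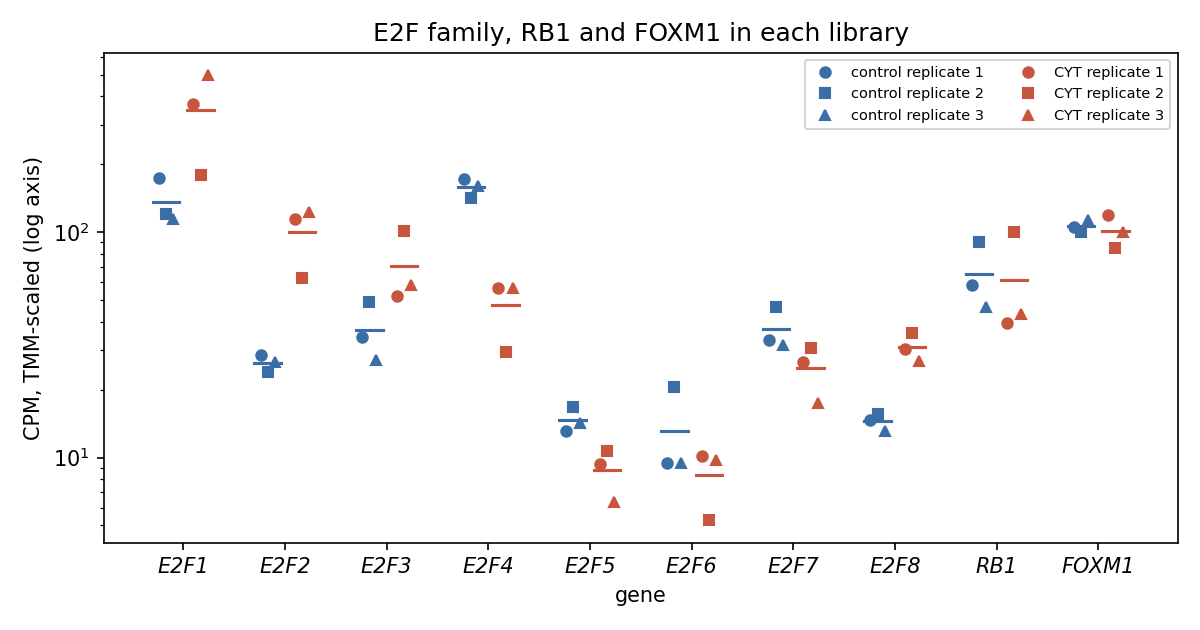
CPM of each member on a log axis in the 3 control (blue) and 3 CYT (red) libraries, with the replicate shown by the marker and the group mean by a bar. E2F1, E2F2 and E2F8 lie higher in every CYT library than in any control library, E2F4 lies lower, and RB1 and FOXM1 overlap.

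The activators E2F1 and E2F2 rose with CYT. E2F1 (ENSG00000101412, 1 annotated transcript, chr20:33675683-33686404, minus strand, GRCh38) had 2809, 2269 and 1585 counts in control replicates 1, 2 and 3 and 5258, 2522 and 6254 counts in CYT replicates 1, 2 and 3. These counts correspond to 174, 121 and 114 CPM in control and to 371, 179.5 and 497 CPM in CYT libraries. CYT replicate 2 was the lowest CYT library and lay just above control replicate 1, so the groups did not overlap but came close. The mean went from 136 ± 33.0 to 349 ± 160 CPM (SD, n = 3), a log2 fold change of 1.36 (SE 0.395, 95% CI 0.47 to 2.24, 2.56-fold, edgeR adjusted p = 0.0293). Without CYT replicate 2 the log2 fold change was 1.67 (edgeR adjusted p = 0.00231). The E2F1 call was lost without control replicate 2 (edgeR adjusted p = 0.0840), control replicate 3 (0.116), CYT replicate 1 (0.0773) or CYT replicate 3 (0.104), and over 12 alternatives its adjusted p ran from 0.00195 to 0.116.

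E2F2 (ENSG00000007968, chr1:23506430-23531220, minus strand) had 461, 449 and 369 counts in control replicates 1, 2 and 3 and 1625, 880 and 1540 counts in CYT replicates 1, 2 and 3. All 3 CYT libraries were above all controls, with CYT replicate 2 again the lowest of its group. Its mean rose from 26.3 ± 2.34 to 99.9 ± 32.5 CPM (SD, n = 3), a log2 fold change of 1.92 (SE 0.338, 95% CI 1.17 to 2.68, 3.79-fold, edgeR adjusted p = 0.00331). Without CYT replicate 2 it was 2.17 (edgeR adjusted p = 0.000460). The E2F2 call held in all 12 alternatives, with adjusted p from 1.15e-06 to 0.0224.

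E2F3 (ENSG00000112242, chr6:20401906-20493715, plus strand), the remaining activator, had 550, 920 and 376 counts in control replicates 1, 2 and 3 and 738, 1426 and 736 counts in CYT replicates 1, 2 and 3. The replicate 2 library was the highest of each group, the reverse of E2F1 and E2F2. After scaling, the control values of 34.1, 49.0 and 27.0 CPM lay below the CYT values of 52.05, 101.5 and 58.5 CPM without overlap, by a small margin between control replicate 2 and CYT replicate 1. The log2 fold change of 0.94 (SE 0.368, 95% CI 0.12 to 1.77) was not called in edgeR's quasi-likelihood test (adjusted p = 0.0824) and was 0.58 without CYT replicate 2 (adjusted p = 0.160). With the replicate number as a block E2F3 was called (edgeR adjusted p = 0.0158), and so it was with a correction for GC content together with that block, an alternative chosen after seeing the data (log2 fold change 0.84, edgeR adjusted p = 0.0139). DESeq2 called E2F3 too (adjusted p = 0.0416), and over its 12 alternatives the adjusted p ran from 0.0139 to 0.272. On simulated counts the share of false calls was 5.3% in the edgeR test without the block and 20.3% in DESeq2. This bears on every call gained under DESeq2. The share was 7.38% with the block and 7.32% with the GC correction and block. The simulated counts held no replicate or GC effect. They therefore cannot show how often calls gained under the fits with the block are false in these libraries.

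The bases in front of the start sites were read for the members. RefSeq promoter entries for the E2F genes on the GRCh38.p14 build were searched on both strands, in the 250 bases before the annotated start, for the letters TTTCGCG and TTGGCGC, which resemble the site that E2F proteins bind. The letters were chosen with these sequences in view, so their presence in the activators is a description and the shares below do not test it. Among 35116 promoter entries, TTTCGCG stood in 1.10%, TTGGCGC in 2.56% and either of them in 3.57%. The upstream bases of E2F1 (chr20:33686386-33686635, minus strand), E2F2 (chr1:23531234-23531483, minus strand) and E2F3 (chr6:20401629-20401878, plus strand) held both, and those of E2F4 (chr16:67191905-67192154, plus strand) held neither, as most entries did. They are printed 5′ to 3′ in the direction of the gene, with the matches in capitals, to show the activators beside E2F4.
E2F1: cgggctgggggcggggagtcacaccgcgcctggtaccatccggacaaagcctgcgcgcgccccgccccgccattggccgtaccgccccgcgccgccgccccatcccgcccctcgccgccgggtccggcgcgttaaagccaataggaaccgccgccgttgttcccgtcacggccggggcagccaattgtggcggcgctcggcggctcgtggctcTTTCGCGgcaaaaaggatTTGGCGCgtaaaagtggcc
E2F2: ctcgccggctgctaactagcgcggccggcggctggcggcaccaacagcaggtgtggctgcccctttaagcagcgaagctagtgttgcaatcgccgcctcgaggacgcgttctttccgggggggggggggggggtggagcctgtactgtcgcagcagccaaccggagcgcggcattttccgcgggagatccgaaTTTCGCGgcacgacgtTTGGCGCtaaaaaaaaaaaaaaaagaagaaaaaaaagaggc
E2F3: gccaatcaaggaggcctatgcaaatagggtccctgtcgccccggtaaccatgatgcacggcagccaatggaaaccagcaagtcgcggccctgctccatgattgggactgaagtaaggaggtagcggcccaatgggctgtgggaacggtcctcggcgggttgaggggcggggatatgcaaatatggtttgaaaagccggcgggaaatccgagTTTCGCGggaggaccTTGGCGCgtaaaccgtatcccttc
E2F4: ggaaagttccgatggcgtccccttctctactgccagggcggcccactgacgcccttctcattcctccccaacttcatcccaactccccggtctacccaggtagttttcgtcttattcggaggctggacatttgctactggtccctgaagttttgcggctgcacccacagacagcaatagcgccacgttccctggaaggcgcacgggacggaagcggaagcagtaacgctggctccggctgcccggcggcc

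Counted back from the start, TTTCGCG covered positions -37 to -31 in E2F1, -57 to -51 in E2F2 and -39 to -33 in E2F3. The E2F1 locus of the deposited table ends at base 33686404 of chromosome 20, inside its window, so the start differs between annotations. The same holds for E2F6 (base 11466177 of chromosome 2) and E2F7 (base 77065580 of chromosome 12). TTGGCGC followed on the same strand at positions -19 to -13 in E2F1, -41 to -35 in E2F2 and -24 to -18 in E2F3, and no matches overlapped. A second E2F3 entry (chr6:20403364-20403613) and the E2F6 entry held neither run of letters, and the E2F7 entry held TTGGCGC once, on the opposite strand, at positions -133 to -127. E2F8 and FOXM1 had no entry. Entries of members on chromosome 8, where E2F5 lies, were left out of the search. The RB1 entry, which lies inside the gene, was not used, while the second E2F3 entry, which also lies inside its gene, was searched. A match describes these letters in this window, and binding was not measured.

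E2F4 (ENSG00000205250, chr16:67192169-67198918, plus strand), the main E2F repressor in resting cells, fell. It had 2778, 2663 and 2221 counts in control replicates 1, 2 and 3 and 800, 413 and 708 counts in CYT replicates 1, 2 and 3. Every CYT library was far below every control, with CYT replicate 2 the lowest. The mean fell from 158 ± 15.3 to 47.4 ± 15.6 CPM (SD, n = 3), a log2 fold change of -1.74 (SE 0.335, 95% CI -2.49 to -0.99, 3.33-fold lower, edgeR adjusted p = 0.00496). Without CYT replicate 2 it was -1.49 (edgeR adjusted p = 0.00227), and the E2F4 call held in all 12 alternatives, with adjusted p from 2.68e-05 to 0.0224.

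E2F5, the other repressor that pairs with pocket proteins, had 212, 315 and 198 counts in control replicates 1, 2 and 3 and 133, 150 and 80 counts in CYT replicates 1, 2 and 3. The scaled groups did not overlap, with 13.1 to 16.8 CPM in control and 6.36 to 10.7 CPM in CYT libraries. Its log2 fold change of -0.74 (95% CI -1.48 to 0.0012) was not called (edgeR adjusted p = 0.123), and was -0.91 without CYT replicate 2 (edgeR adjusted p = 0.0553). E2F5 was called with the GC correction and replicate block (log2 fold change -0.83, edgeR adjusted p = 0.0252, with a range of 0.0252 to 0.337 over its 12 alternatives). E2F5 overlaps C8orf59 on the opposite strand, and since the use of strand in the counting is not given in the sources used here, reads of the 2 genes may have been mixed.

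E2F6 represses as part of a Polycomb-related complex. It had 152, 386 and 132 counts in control replicates 1, 2 and 3 and 144, 74 and 123 counts in CYT replicates 1, 2 and 3. Control replicate 2 was high and CYT replicate 2 low, while the other 4 libraries lay between 9.42 and 10.2 CPM, so the groups overlapped. The log2 fold change of -0.65 was not called (edgeR adjusted p = 0.286). It was -0.18 without control replicate 2 and -0.42 without CYT replicate 2 (edgeR adjusted p = 0.779 and 0.459), over a range of 0.241 to 0.779 in its 12 alternatives. The 4 E2F6 pseudogenes had at most 5 counts in any library.

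The atypical repressors E2F7 and E2F8, which bind DNA without a DP partner and are known to act on many of the same genes, had fold changes of opposite sign, of which only that of E2F8 was called. E2F8 (ENSG00000129173, chr11:19224063-19241620, minus strand) had 236, 293 and 183 counts in control replicates 1, 2 and 3 and 428, 504 and 339 counts in CYT replicates 1, 2 and 3. The 3 CYT libraries were all above the 3 controls and both groups were tight. Its mean rose from 14.5 ± 1.23 to 31.0 ± 4.52 CPM (SD, n = 3), a log2 fold change of 1.10 (SE 0.291, 95% CI 0.45 to 1.75, 2.14-fold, edgeR adjusted p = 0.0200), and 0.98 without CYT replicate 2 (edgeR adjusted p = 0.0171). The E2F8 call was lost without control replicate 1 (edgeR adjusted p = 0.0721), control replicate 3 (0.0964) or CYT replicate 1 (0.0569), and its adjusted p ran from 0.00192 to 0.0964 over 12 alternatives.

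E2F7 had 537, 873 and 438 counts in control replicates 1, 2 and 3 and 378, 429 and 219 counts in CYT replicates 1, 2 and 3. Its scaled groups did not overlap, with the lowest control at 31.5 CPM and the highest CYT library at 30.5 CPM. The log2 fold change of -0.58 (95% CI -1.31 to 0.16) was not called (edgeR adjusted p = 0.216), and was -0.76 without CYT replicate 2 (edgeR adjusted p = 0.0885). With the GC correction and the replicate block E2F7 was called (log2 fold change -0.69, edgeR adjusted p = 0.0253, range 0.0253 to 0.516 over its 12 alternatives). The difference between the fold changes of E2F7 and E2F8 was not tested.

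RB1, the pocket protein that restrains the activators, was not called. RB1 had 939, 1702 and 649 counts in control replicates 1, 2 and 3 and 562, 1407 and 547 counts in CYT replicates 1, 2 and 3. The replicate 2 libraries were the highest of both groups, at 90.6 CPM in control and 100.1 CPM in CYT, and the groups overlapped. The log2 fold change was -0.09 (SE 0.426, 95% CI -1.05 to 0.86, edgeR adjusted p = 0.892), and it changed sign under upper-quartile normalization (0.06) and without control replicate 2 (0.20), CYT replicate 1 (0.13) or CYT replicate 3 (0.11). Without CYT replicate 2 it was -0.66 (edgeR adjusted p = 0.141, within a range of 0.141 to 0.936). LPAR6, on the opposite strand within RB1, had at most 18 counts in any library, and the pseudogene PCNPP5 within RB1 had 9 to 38.

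FOXM1, the forkhead activator of mitotic genes, was not called either. FOXM1 had 1702, 1892 and 1577 counts in control replicates 1, 2 and 3 and 1685, 1198 and 1255 counts in CYT replicates 1, 2 and 3. The scaled values were 105.5, 101 and 113 CPM in control and 119, 85.3 and 99.7 CPM in CYT libraries, so that the CYT group surrounded the controls. The log2 fold change was -0.07 (SE 0.275, 95% CI -0.69 to 0.54, edgeR adjusted p = 0.868). Its sign turned under upper-quartile normalization (0.08), without CYT replicate 2 (0.03) and with the GC correction and replicate block (0.0074). FOXM1 overlaps RHNO1 and ITFG2 on the opposite strand, with 208 to 1030 and 32 to 200 counts, and their reads may have been mixed with those of FOXM1. The exact two-sided permutation test exchanged libraries between the groups without regard to the replicate number. Its p was 0.1 for the 7 members without overlap, which is the smallest value that 3 against 3 libraries allow. For E2F6, RB1 and FOXM1 it was 0.6, 0.8 and 0.6.

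**Figure D3:**
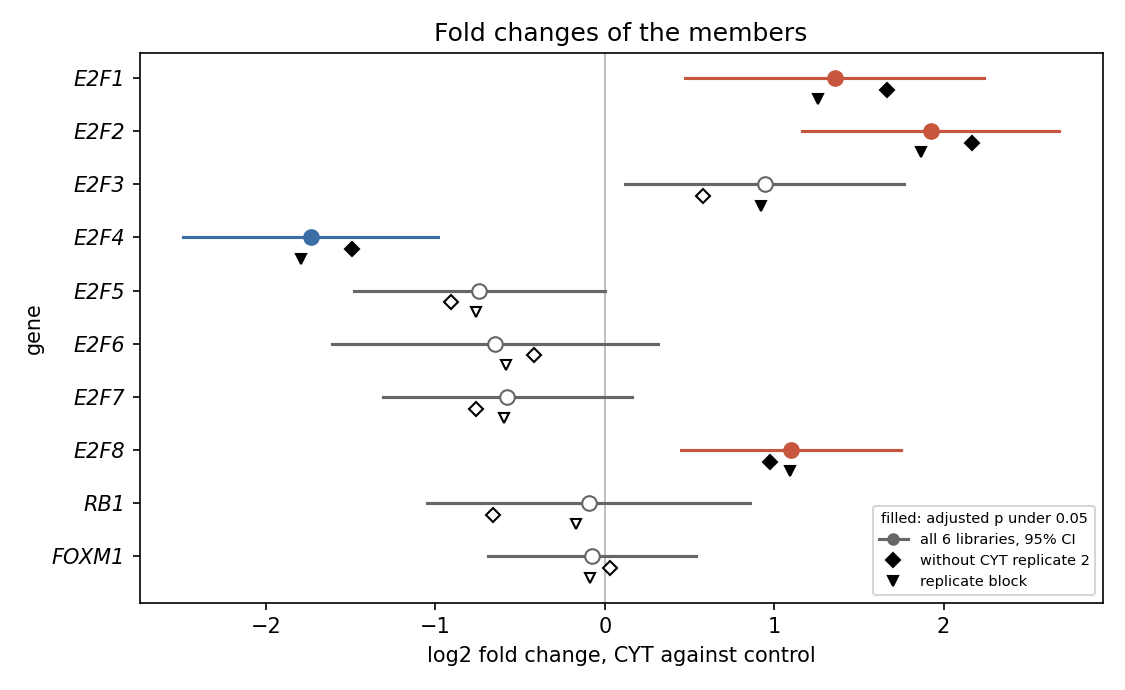
Log2 fold change of each member, CYT against control, with its 95% CI from all 6 libraries (circles), without CYT replicate 2 (diamonds) and with the replicate number as a block (triangles). Filled symbols have an adjusted p under 0.05: E2F1, E2F2, E2F4 and E2F8 are filled in all 3, E2F3 only with the block, and FOXM1 changes side of 0 without CYT replicate 2.

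Levels of different genes were compared per length. The deposited FPKM divides by a length that, for 92.1% of 10158 genes (50 counts or more in each library), equalled within 2 bases the summed lengths of all distinct annotated exons, so overlapping exons were counted repeatedly and the length of a gene with many transcripts was overstated. For E2F4, with 13 transcripts, that length was 9300 bases against 3582 bases of exonic sequence, and for E2F1 both were 2503 bases. CPM per kilobase of exonic sequence (GENCODE release 29) was therefore used for the order of levels, a choice made after seeing the data. RB1 has another locus in that annotation than in the deposited table, so its level per kilobase is less certain.

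In control libraries, E2F1 with 54.5 ± 13.2 and E2F4 with 44.1 ± 4.27 CPM per kb (SD, n = 3) were the most abundant members, and their libraries overlapped. FOXM1 with 21.8 ± 1.31 CPM per kb came next, below every E2F4 value. RB1 (10.1 ± 3.53), E2F3 (7.11 ± 2.17), E2F7 (5.88 ± 1.30) and E2F2 (4.83 ± 0.429 CPM per kb) followed, each overlapping its neighbour in this order. E2F8, E2F6 and E2F5 were lowest, with 3.49 ± 0.297, 3.23 ± 1.58 and 2.48 ± 0.314 CPM per kb, and neighbours among them overlapped too.

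In CYT libraries E2F1 stood alone at the top with 139.5 ± 63.9 CPM per kb (SD, n = 3), its lowest library at 71.7. FOXM1 (20.7 ± 3.43), E2F2 (18.3 ± 5.95), E2F3 (13.7 ± 5.21), E2F4 (13.2 ± 4.34), RB1 (9.47 ± 5.25) and E2F8 (7.49 ± 1.09 CPM per kb) formed a series in which neighbours overlapped. E2F7 with 3.95 ± 1.07 CPM per kb lay below all E2F8 values, and E2F6 and E2F5 with 2.065 ± 0.669 and 1.49 ± 0.374 CPM per kb were again lowest. E2F4 thus went from the level of E2F1 to that of E2F3, and E2F2 came to overlap FOXM1.

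The ratio of E2F1 to E2F4 in CPM per kb was 1.45, 1.22 and 1.02 in control replicates 1, 2 and 3 and 9.41, 8.74 and 12.6 in CYT replicates 1, 2 and 3. The ratio was close within each group, also in CYT replicate 2, in which both genes were low. On the deposited FPKM scale the same ratio was 3.76, 3.17 and 2.65 in control and 24.4, 22.7 and 32.8 in CYT libraries. Of the summed CPM per kb of E2F1 to E2F8, E2F1 held 43.0% ± 4.97 in control and 67.6% ± 10.3 in CYT libraries, and E2F4 held 35.3% ± 3.60 and 6.64% ± 0.751 (SD, n = 3). E2F3 held 15.4% in CYT replicate 2, against 4.79% and 4.34% in CYT replicates 1 and 3.

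The activators E2F1 to E2F3 together held 74.6%, 68.5% and 68.0% of the summed E2F FPKM in control replicates 1, 2 and 3, and 91.7%, 87.0% and 94.2% in CYT replicates 1, 2 and 3. All CYT libraries were above all controls, and the means differed by 20.6 percentage points, or by 22.6 without CYT replicate 2. Per kilobase of exonic sequence the activators' share was 57.0%, 51.5% and 49.2% in control and 85.1%, 80.6% and 89.1% in CYT libraries. The share depends on the length used, and the direction was the same on both scales.

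**Figure D4:**
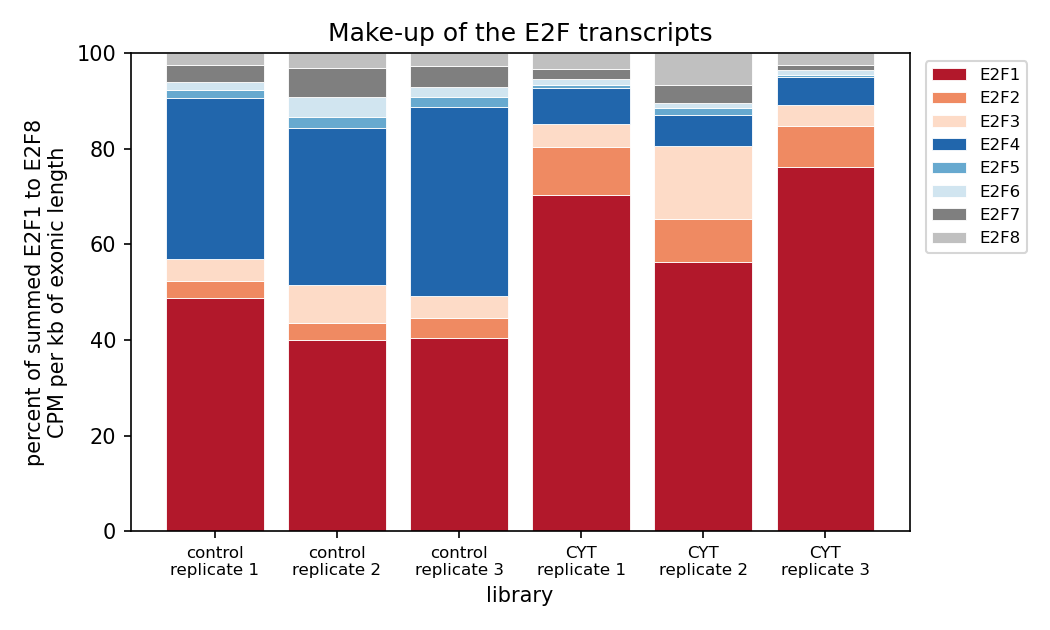
Percent of the summed CPM per kb of E2F1 to E2F8 held by each gene, as stacked bars for each of the 6 libraries. The E2F4 segment takes 32.8% to 39.4% in control and 6.02% to 7.48% in CYT libraries, while E2F1 takes 40.0% to 48.7% and 56.2% to 76.1%.

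The members were also compared by their profiles over the 6 libraries, as the root mean square (RMS) difference of log2 CPM values centred on each gene's mean. The closest pairs were E2F5 with E2F7 (RMS 0.128), E2F3 with E2F8 (0.286) and E2F1 with E2F2 (0.365). Their GC contents were 38.3% and 43.1%, 45.2% and 45.9%, and 62.5% and 57.5%. The deviations of the replicate 2 libraries, which followed GC content, enter these profiles, and their part in the closeness was not tested. Among all genes tested, KLHL25 (RMS 0.0925, log2 fold change 1.35), HAPLN3 (0.107, 1.32) and ARHGEF17 (0.112, 1.25) had the profiles nearest to E2F1. For E2F2 the nearest were NAT16 and the pseudogene SPDYE14P (both RMS 0.118) and the noncoding RNA gene AC006504.5 (0.135), with log2 fold changes of 2.16, 2.18 and 1.74. None of the genes nearest to a called member was another member. For E2F4 they were ZBTB47 (RMS 0.0784), UBL4A (0.0902) and APBA2 (0.107), with log2 fold changes of -1.74, -1.84 and -1.65. For E2F8 they were GABPB2 (RMS 0.0751), SMAD1 (0.0775) and ALDH9A1 (0.0849), with log2 fold changes of 1.13, 1.10 and 1.12.

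The partners and regulators of the E2F proteins were read from lists, each beside the median of 0.0064 over all genes and the 15.7% of all genes called higher and 12.9% called lower. Among the DP partners and pocket proteins, 4 of 5 genes were tested, with a median log2 fold change of -0.73, 0 called higher and 1 called lower (25% of 4, beside 12.9% of all genes), and TFDP3 had no counts. RBL1, the pocket protein p107 that binds E2F4, fell from 359, 655 and 277 counts in control replicates 1, 2 and 3 to 115, 215 and 98 in CYT replicates 1, 2 and 3 (log2 fold change -1.30, SE 0.390, edgeR adjusted p = 0.0327). Its replicate 2 library was again the highest of each group. The RBL1 call was lost on leaving out any library but CYT replicate 2, with edgeR adjusted p up to 0.112, and with all 6 libraries under upper-quartile normalization (edgeR adjusted p = 0.0536) and in limma on log2(FPKM + 1) (adjusted p = 0.0574). Without CYT replicate 2 the RBL1 log2 fold change was -1.70. RBL2, the related p130, had a log2 fold change of -0.99 (edgeR adjusted p = 0.0894), and was called with the replicate block (edgeR adjusted p = 0.0115) and without CYT replicate 2 (0.0110). The DP genes TFDP1 and TFDP2 had log2 fold changes of 0.21 and -0.47 (edgeR adjusted p = 0.675 and 0.241), and that of TFDP1 turned to -0.07 without control replicate 2.

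The MuvB core binds E2F4 and p130 in resting cells and MYBL2 and FOXM1 in dividing cells. Of its 5 genes and MYBL2, 6 of 6 were tested, with a median log2 fold change of 0.85, 1 called higher (16.7%, close to the 15.7% of all genes) and 0 called lower. LIN52, the subunit called, had a log2 fold change of 1.29 (edgeR adjusted p = 0.0235), lost without control replicate 1, control replicate 3 or CYT replicate 3 (up to 0.0968). LIN37 and LIN9 were at 1.20 and 1.0 (edgeR adjusted p = 0.0510 and 0.0559), and were called with the replicate block (edgeR adjusted p = 0.0299 and 0.0137), as was LIN37 without CYT replicate 2 (0.0107) and LIN9 without control replicate 2 (0.0494). MYBL2, the activator that shares targets with FOXM1, had 8842, 4532 and 6118 counts in control replicates 1, 2 and 3 and 3839, 1273 and 3168 in CYT replicates 1, 2 and 3. Replicate 2 was the lowest of each group, and after scaling the groups overlapped, with control replicate 2 at 241 CPM and CYT replicate 1 at 271 CPM. Its log2 fold change of -1.0 was not called (edgeR adjusted p = 0.127), but was called with the replicate block (edgeR adjusted p = 0.00891), and was -0.65 without CYT replicate 2.

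Of the 12 genes of the E2F6 complex, 12 were tested, with a median log2 fold change of -0.08, 1 called higher (8.33%, beside 15.7% of all genes) and 3 called lower (25%, beside 12.9%). The histone methyltransferase genes EHMT2 and EHMT1 fell, with log2 fold changes of -1.96 and -1.63 (SE 0.383 and 0.377, edgeR adjusted p = 0.00523 and 0.0113). WDR5, a scaffold of histone-modifying complexes, fell with a log2 fold change of -1.46 (edgeR adjusted p = 0.00558). All 3 kept their call on leaving out each library in turn. YAF2, a RING1-binding subunit, rose with a log2 fold change of 1.18 (edgeR adjusted p = 0.0376), a call lost without any control library or without CYT replicate 3 (up to 0.150), and with no filter on low counts (0.0541). RYBP, its paralog, had a log2 fold change of 0.76 (edgeR adjusted p = 0.176) and was called with the replicate block (edgeR adjusted p = 0.0399), but it was 0.29 without CYT replicate 2 (edgeR adjusted p = 0.482). The median of the list turned to 0.07 under upper-quartile normalization.

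Of 8 genes of the kinases that phosphorylate RB1, 7 were tested, with a median log2 fold change of 0.38 (-0.05 without CYT replicate 2), 3 called higher (42.9%, beside 15.7% of all genes) and 2 called lower (28.6%, beside 12.9%), and CCND2 had at most 4 counts in any library. Of the genes of early G1, cyclin D1 (CCND1) fell. CCND1 had 7520, 9367 and 5310 counts in control replicates 1, 2 and 3 and 2241, 2668 and 1846 in CYT replicates 1, 2 and 3 (log2 fold change -1.45, SE 0.274, edgeR adjusted p = 0.00459). The CCND1 call held on leaving out each library. Its kinase CDK4 had a log2 fold change of -0.93 (edgeR adjusted p = 0.0298), lost without any control library or without CYT replicate 1 (up to 0.117) and under upper-quartile normalization (0.0520). The other early G1 genes tested, CDK6 and CCND3, were not called, with log2 fold changes of 0.38 and -0.29 (edgeR adjusted p = 0.568 and 0.624) and overlapping groups. Neither direction held on leaving out a library, with CDK6 at -0.32 without CYT replicate 2 and CCND3 at 0.17 without control replicate 1. The cyclin E genes and CDK2, which act later in G1, were called higher, with log2 fold changes of 1.0 for CCNE1, 1.94 for CCNE2 and 1.12 for CDK2 (edgeR adjusted p = 0.0323, 0.0326 and 0.0346). CCNE2 had 114, 243 and 185 counts in control replicates 1, 2 and 3 and 182, 1087 and 477 in CYT replicates 1, 2 and 3, so its groups overlapped and CYT replicate 2 was far above the others. Without CYT replicate 2, CCNE2 was at 1.17 (edgeR adjusted p = 0.0768), CCNE1 at 1.07 (0.0138) and CDK2 at 0.80 (0.0393). The CCNE1, CCNE2 and CDK2 calls were each lost without any control library and without CYT replicate 3, CCNE1 also without CYT replicate 1, with edgeR adjusted p up to 0.106, 0.116 and 0.146. CCNE1 was not called with no filter on low counts either (edgeR adjusted p = 0.0766), nor CCNE2 in limma on log2(FPKM + 1) (adjusted p = 0.0923).

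Of the 7 CDK inhibitor genes 6 were tested, with a median log2 fold change of 1.18, 3 called higher (50%, beside 15.7% of all genes) and 0 called lower, and CDKN2B had at most 3 counts in any library. CDKN2C, the p18 inhibitor of CDK4 and CDK6, rose from 1523, 1570 and 1530 counts in control replicates 1, 2 and 3 to 3909, 3714 and 3851 in CYT replicates 1, 2 and 3 (log2 fold change 1.56, SE 0.272, edgeR adjusted p = 0.00325). Its libraries were tight in both groups and the call held on leaving out each of them. CDKN1A, the p21 inhibitor induced by DNA damage, had 2690, 2598 and 1854 counts in control and 8101, 2546 and 6195 in CYT replicates 1, 2 and 3 (log2 fold change 1.51, edgeR adjusted p = 0.0230, and 1.86 with adjusted p = 0.000872 without CYT replicate 2). CYT replicate 2 lay among the controls in raw count, but the scaled groups did not overlap. CDKN1C, the p57 inhibitor, had a log2 fold change of 1.36 (edgeR adjusted p = 0.0245). The CDKN1A and CDKN1C calls were lost on leaving out any library but CYT replicate 2 (edgeR adjusted p up to 0.0893 and 0.105). CDKN1B, the p27 inhibitor, was at 1.0 (edgeR adjusted p = 0.0504) and was called with the replicate block (edgeR adjusted p = 0.0130). The remaining genes tested, CDKN2A and CDKN2D, had log2 fold changes of -0.63 and -0.22 (edgeR adjusted p = 0.424 and 0.626) and overlapping groups.

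The target genes were read as a G1/S list for the E2F proteins and a G2/M list for FOXM1 and MYBL2, and CCNE1 and CCNE2 belong to the G1/S list too. All 35 G1/S genes were tested, with a median log2 fold change of 0.27, 20.0% (7 genes) called higher and 5.71% (2 genes) called lower, beside 15.7% and 12.9% of all genes. Leaving out each library gave 1 to 7 called higher and 0 to 3 called lower, with 7 and 3 without CYT replicate 2 (all genes 18.6% and 17%) and the lowest count higher without control replicate 3 (all genes 10.3%). The genes called higher numbered 3 with limma on log2(FPKM + 1), beside 15.2% of all genes, and 4 with no filter on low counts, beside 9.2%. With the GC correction and replicate block 12 were called higher and 7 lower, beside 22.9% and 22.1% of all genes. Beside CCNE2, the genes called higher included DTL, a substrate receptor of a ubiquitin ligase, at 1.65 and MCM6, a helicase subunit, at 1.13 (edgeR adjusted p = 0.00886 and 0.0364). The DTL call was lost without control replicate 3 (edgeR adjusted p = 0.0517) and that of MCM6 without any control library or CYT replicate 1 (up to 0.129) and in limma on log2(FPKM + 1) (adjusted p = 0.0557). MCM6 had a log2 fold change of 0.72 without CYT replicate 2, its highest library. The replication factors GINS1 and MCM3 were lower, with log2 fold changes of -1.11 and -1.10 (edgeR adjusted p = 0.0241 and 0.0129). Their calls were lost without CYT replicate 3, and that of GINS1 also without control replicate 2, control replicate 3 or CYT replicate 1 (edgeR adjusted p up to 0.0591 for MCM3 and 0.0850 for GINS1). The most abundant uncalled genes were TK1 (log2 fold change 0.91, edgeR adjusted p = 0.0787) and MCM7 (-0.24, 0.603, and -0.03 without CYT replicate 2), and TK1 was called without CYT replicate 2 (1.17, edgeR adjusted p = 0.0117).

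All 37 G2/M genes were tested, with a median log2 fold change of -0.67, 0 called higher and 37.8% (14 genes) called lower, beside 15.7% and 12.9% of all genes. Leaving out each library gave 9 to 19 genes called lower, with 9 without CYT replicate 3 and 19 without CYT replicate 2, beside 7.63% and 17% of all genes. BUB1B, a spindle checkpoint kinase gene, had 524, 640 and 611 counts in control replicates 1, 2 and 3 and 63, 52 and 35 in CYT replicates 1, 2 and 3 (log2 fold change -3.33, SE 0.346, edgeR adjusted p = 0.000520). PLK1, a mitotic kinase gene, had 4796, 4513 and 4616 counts in control and 552, 323 and 472 in CYT replicates 1, 2 and 3 (log2 fold change -3.13, SE 0.335, edgeR adjusted p = 0.000544). In both genes the libraries of a group were tight and the groups far apart. AURKB, the kinase of the chromosomal passenger complex, was at -2.34 and the mitotic cyclin gene CCNB2 at -1.92 (edgeR adjusted p = 0.00260 and 0.00189), and these 4 calls held on leaving out each library. With the GC correction and replicate block, 23 genes of the list were called lower, beside 22.1% of all genes.

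The most abundant uncalled G2/M genes were CDK1 and PTTG1. CDK1, the mitotic kinase, had 3559, 7889 and 3285 counts in control replicates 1, 2 and 3 and 5706, 13725 and 6701 in CYT replicates 1, 2 and 3. Replicate 2 was the highest library of each group, and control replicate 2 lay among the CYT libraries. The log2 fold change of CDK1 was 1.12 (SE 0.404, edgeR adjusted p = 0.0636), it was called with the replicate block (edgeR adjusted p = 0.00775) and without control replicate 2 (0.0382), and it was 0.66 without CYT replicate 2 (0.154). PTTG1, the securin gene, was at 0.04 (edgeR adjusted p = 0.927), and from -0.05 to 0.07 on leaving out each library. Of the uncalled genes named from the lists, LIN9, LIN37, CDKN1B, TK1 and CDK1 were each called higher with DESeq2, under upper-quartile normalization and with the GC correction and replicate block. The fit with the GC correction and replicate block also called RYBP and CBX3 higher and RBL2, TFDP2 and MYBL2 lower. Of these, RYBP, RBL2 and MYBL2 were called with the block alone. CBX3 and TFDP2 were not (edgeR adjusted p = 0.0553 and 0.148). CBX3 was at 0.98 with neither correction nor block, and at 0.27 without CYT replicate 2. The genes of all 7 lists overlap in function and were chosen from knowledge of the pathway, and whether a list differs from other genes was not tested.

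**Figure D5:**
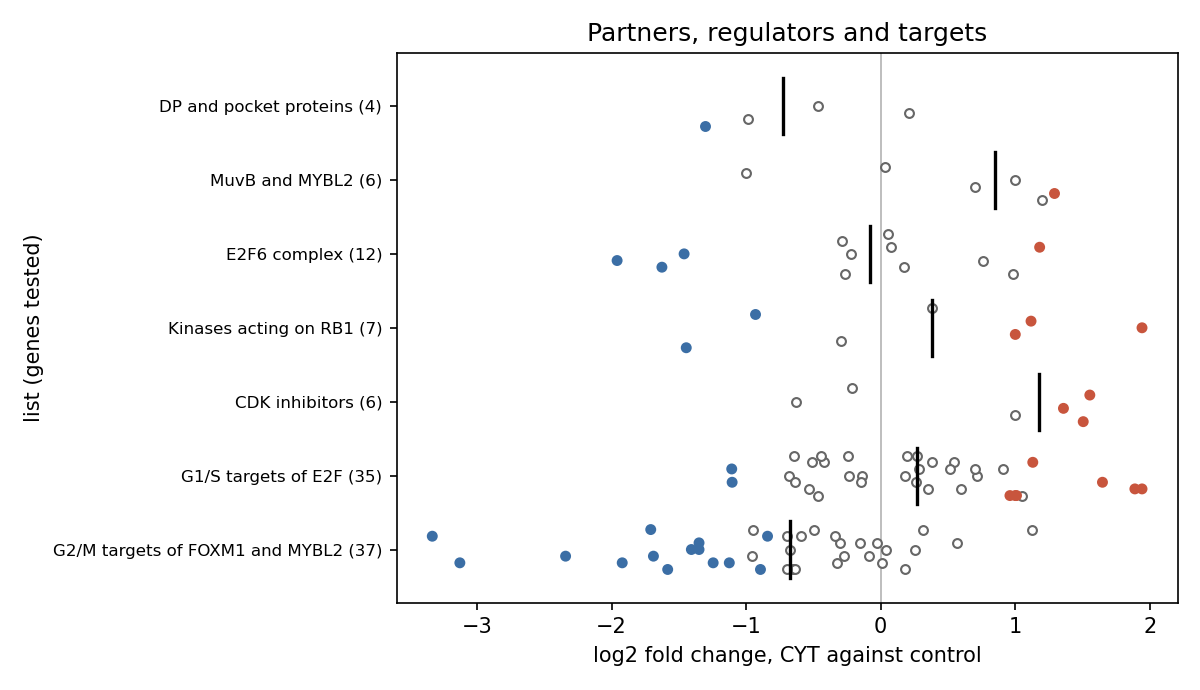
Log2 fold change, CYT against control, of every tested gene of the 7 lists, with the number of genes tested in brackets. Filled points have an adjusted p under 0.05 (red higher, blue lower), open points do not, and the black bar is the median of the list, from -0.73 for the DP and pocket proteins to 1.18 for the CDK inhibitors.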

How the data were processed

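The 3 control and 3 CYT-treated RNA samples came from MDA-MB-231-DR cells and were grouped by their labels. The authors removed low-quality, adapter and rRNA reads, aligned with Hisat2 and deposited raw counts per gene. They also deposited FPKM values, for which their methods name Stringtie. The submitters' processing notes name FastQC 0.12.1 and the hg38 genome. The counting program and its use of strand are not given in the sources used here. The labels do not say that replicates were separate cultures, so p-values measure only the spread between these samples, which may be technical.

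Counts were scaled by TMM and tested with the quasi-likelihood test of edgeR 4.0.16 in R 4.3.3 (filterByExpr, minimum count 10, Benjamini-Hochberg adjustment), with DESeq2 1.42.0 and limma 3.58.1 on log2(FPKM + 1) as alternatives, beside upper-quartile normalization, no filter, the replicate number as a block and leaving out each library. The share of the activators was also taken without E2F6. Log2 CPM used a prior count of 2. The tests were tried on simulated data that held no replicate or GC effect. There DESeq2 and, by less, limma and the fits with the replicate block had a larger share of false calls than edgeR without the block. Such data cannot show how the fits with the block behave where these effects are present. A correction of each library for its smooth trend on transcript GC content, together with the replicate block, and levels per kilobase of exonic sequence from GENCODE release 29 were added after the data were seen. The deviation of each library from the mean of its group was correlated between control and CYT libraries of the same replicate number. The correlation was 0.188 for replicate 1, 0.458 for replicate 2 and 0.124 for replicate 3, all over 0.1. Unlike numbers correlated more than replicates 1 and 3 did in control replicate 1 with CYT replicate 3 (0.303) and control replicate 3 with CYT replicate 1 (0.201). These correlations do not settle whether the numbers in the labels mark pairs. The replicate number entered only the fits with the block, and all other fits and tests took no account of pairing. No library was a copy of another. Promoter sequences were from RefSeq.

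The members and the lists were chosen with earlier results of these data known. Named were the 10 members and any gene of the lists of at most 14 genes. Of the longer lists, named were the 4 called genes with the largest absolute log2 fold change in each direction and the 2 uncalled genes with the highest mean CPM, of which 1 gene is not reported here. The 3 genes nearest in profile to each called member, genes overlapping a member and cell type markers were named as well.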

Additional observations from a re-analysis of the deposited data

How the results depend on the processing

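Over 12 alternatives, the E2F2 and E2F4 calls held in all, and of the 120 log2 fold changes of members under them 101 kept their direction and their side of the threshold, 7 lost a call, 5 gained one and 7 changed sign. Sign changes were those of RB1 (0.056 under upper-quartile normalization, and -0.66 to 0.20 on leaving out each library) and FOXM1 (0.076 under upper-quartile normalization, 0.0074 with the GC correction and replicate block, and -0.21 to 0.032 on leaving out each library). The cause was not tested.

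Genes called numbered 4451, from 2891 to 5752 on leaving out each library and 6999 with the GC correction and replicate block. Genes called lower numbered 2002, and 3089 with the replicate block, 3437 with the GC correction and replicate block, and 1208 to 2750 on leaving out each library, where fewer samples enter the test. Members called higher numbered 1 to 3 on leaving out each library, with 1, E2F2, without control replicate 3 and without CYT replicate 1. With the GC correction and replicate block 3 members were called lower, E2F4, E2F5 and E2F7, beside 22.1% of all genes. The replicate block changed the call of E2F3 and of no other member, and of no named list gene other than those given in the report. The share of the activators in the summed E2F FPKM differed between the groups by 18.99 to 22.7 percentage points on leaving out each library and by 19.9 without E2F6.

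With 3 libraries a group and a biological coefficient of variation of 37.5%, the changes measured for E2F5 and E2F7 were called only with the GC correction and replicate block among the 12 alternatives, and that of E2F6 under none. E2F5 and E2F6 had the lowest mean CPM of the members, with 74 to 386 counts per library. RNA levels do not show the phosphorylation of RB1 or the activity of E2F proteins, and the alignment of reads shared between related or overlapping genes was not examined.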
